A study of Mus musculus with 18 samples.

Results

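S-Rcm 12 h and R-Scm 12 h are mouse embryonic fibroblasts (MEFs) that passed through opposite serum exchanges and were harvested at the same time after it. Scm is complete medium made with S-FBS, a fetal bovine serum that leaves MEFs sensitive to ferroptosis, the iron-dependent cell death driven by lipid peroxidation, and Rcm is complete medium made with R-FBS, a serum that makes them resistant. S-Rcm 12 h cells were raised in Scm and given Rcm, R-Scm 12 h cells were raised in Rcm and given Scm, and both were collected 12 h later, so that the medium change was matched while the present serum and the serum of the past were swapped. All groups were wild-type MEFs that differed, by their labels, in medium and time alone. The 6 libraries, 3 per group, were taken by their labels from the 18 libraries and 6 groups of the series. The other groups were steady Scm, steady Rcm, S-Rcm 24 h and R-Scm 24 h, also with 3 libraries each. The steady groups are labelled 0 h and had no exchange of medium. An exchanged group set against a steady group therefore differs in fresh medium and time as well as in serum history. The labels describe 1 kind of MEF and do not say whether the 3 libraries of a group came from separate cultures, so that p values measure the spread between these libraries, which may be technical. Below, a positive log2 fold change means a higher level in S-Rcm 12 h, that is, in the cells now in Rcm.

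Some background helps in reading the genes. Cells sense sterols in the endoplasmic reticulum: when sterols run low, SCAP escorts the SREBP transcription factors to the Golgi, where they are cut and released to switch on the genes of cholesterol synthesis and lipoprotein uptake, while INSIG1 holds the complex back when sterols are plentiful. Type I interferon acts through the receptor IFNAR, the kinases JAK1 and TYK2 and a transcription factor complex that contains IRF9 and binds the interferon-stimulated response element of antiviral genes. Serum brings lipoproteins, fatty acids, retinoids and growth factors to fibroblasts in culture, and any of these pathways can read its composition.

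Total counts on genes were 16739046 to 17897649 in S-Rcm 12 h and 16502175 to 19240246 in R-Scm 12 h, and 15381 genes were expressed well enough to be tested. Fibroblast markers were present, with 8 of 10 above 3 counts in a library (Col1a1 and Pdgfra among them, Lum and Fap not), and the defining markers of other lineages such as Adgre1, Sox10, Pou5f1, Myod1 and Adipoq were at 0 in all 6 libraries. Sox2 was the exception, at 50.5 to 72.7 CPM, the counts scaled to library size used throughout. The first principal component of the 6 libraries held 39.6% of their variance and placed S-Rcm 12 h at -35.3 to -13.4 and R-Scm 12 h at 10.8 to 46.0. R-Scm 12 h replicate 3 lay farthest out, and several secreted and adhesion genes were highest in it, so that its values are given beside the results it touches. The 13 mRNAs of the mitochondrial genome held 2.0% ± 0.269 of counts in S-Rcm 12 h and 2.99% ± 0.365 in R-Scm 12 h (SD, n = 3, two-sided exact permutation p = 0.1, the smallest that 3 against 3 allows). The 12 other libraries ranged from 1.9% to 3.2%.

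Between the opposite exchanges, 405 of the 15381 genes (2.63%) were differentially expressed genes (DEGs) in edgeR's quasi-likelihood test, which required a shift of over 0.58 on the log2 scale in either direction together with a p, adjusted by Benjamini-Hochberg, below 0.05. Of these, 159 (1.03% of the genes tested) were higher and 246 (1.6%) lower in S-Rcm 12 h. The falls were larger, since 135 of the lower genes but 42 of the higher ones changed by more than 1 on the log2 scale. The median log2 fold change over all genes was 0.0097. The 3 libraries of a group did not overlap those of the other for 404 of the 405 DEGs, while this was so for 27.8% of all genes, 13.4% upward and 14.3% downward. Leaving out S-Rcm 12 h replicate 1 lowered the count to 133, leaving out S-Rcm 12 h replicate 3 to 168 and leaving out R-Scm 12 h replicate 3 to 136. In bulk RNA, fewer cells that express a gene and less of its RNA per cell cannot be told apart.

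Genes of cholesterol synthesis were higher in S-Rcm 12 h, the cells now in Rcm. Of the 21 genes of the pathway, 12 rose and 0 fell, 19 did not overlap between the groups, and the median log2 fold change was 0.73 with all 21 values above 0. Leaving out any of the same 3 libraries gave 6 called genes, and the list's median stayed between 0.71 and 0.79 over 14 alternative settings. The plot of sterol and interferon genes by library shows the sterol and the interferon pattern side by side.

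**Figure D1:**
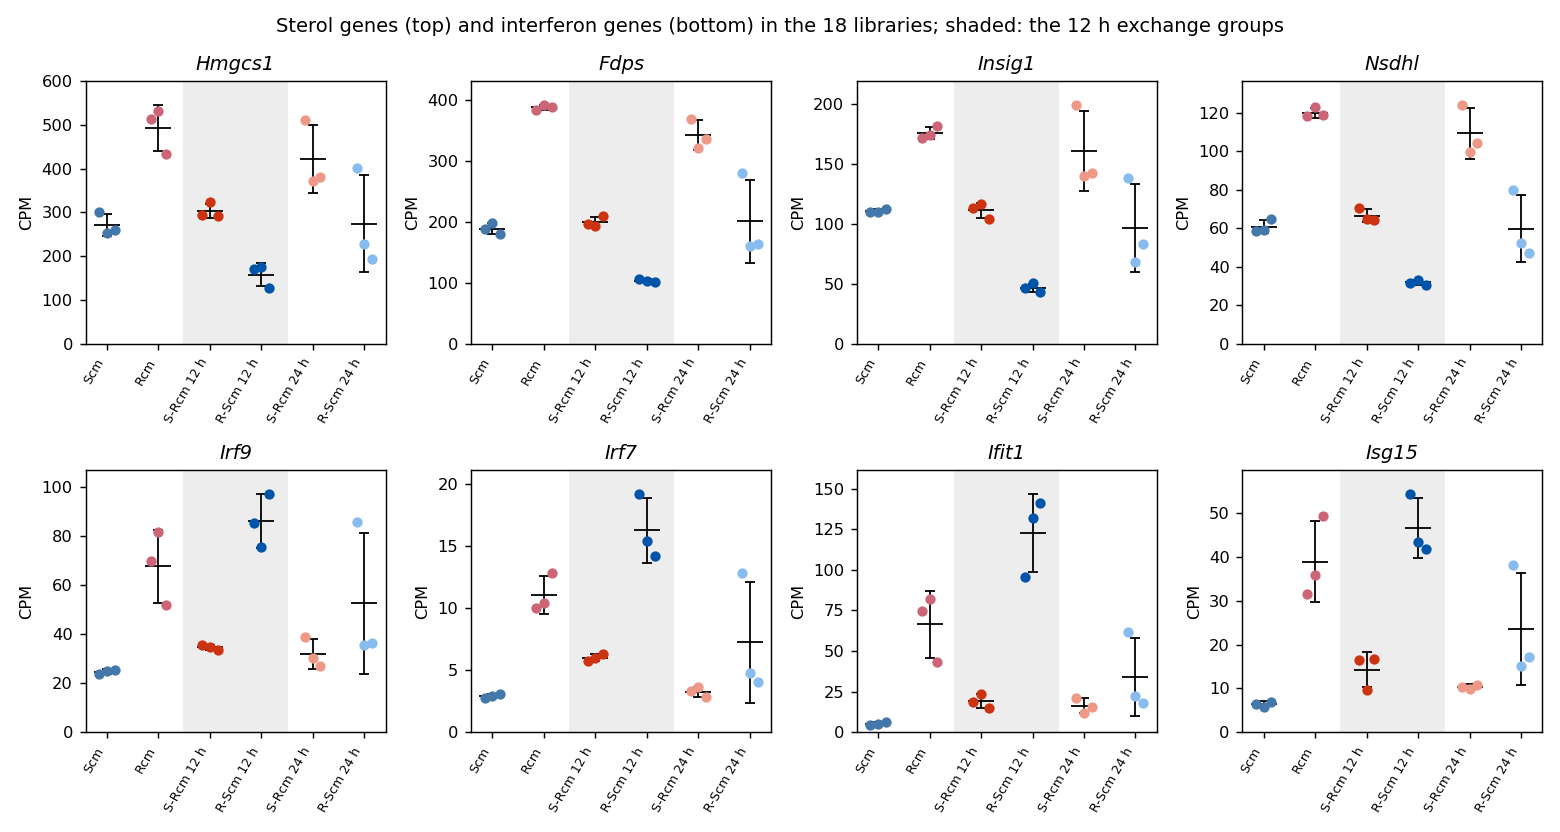
Level (CPM, linear axis from 0) of 4 sterol genes (top) and 4 interferon genes (bottom) in each of the 18 libraries, where points are libraries and the bar with whiskers is the mean ± SD of 3. In the shaded 12 h groups, Fdps sits at 193 to 210 CPM in S-Rcm 12 h and 101 to 106 CPM in R-Scm 12 h, and Ifit1 runs the other way, at 15.1 to 23.6 against 95.5 to 141 CPM.

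In the mevalonate segment, Fdps, which makes farnesyl diphosphate, stood at 197, 193 and 210 CPM in S-Rcm 12 h and at 106, 103 and 101 CPM in R-Scm 12 h. The groups were far apart and each was tight (log2 fold change 0.95 ± 0.15 SE, adjusted p = 0.00317). Hmgcs1, an early synthase of the pathway, was at 295, 323 and 292 CPM against 171, 175 and 127 CPM (0.94 ± 0.21, adjusted p = 0.0207). Its groups did not overlap either, but its call was lost in 4 of 14 alternatives, each with 1 library left out. Mvd, which decarboxylates mevalonate diphosphate, had the largest rise of the pathway, from 11.8 to 19.8 CPM in R-Scm 12 h to 36.1 to 45.7 CPM in S-Rcm 12 h (1.37 ± 0.21, adjusted p = 0.00292), and Mvk, mevalonate kinase, rose by 0.85 ± 0.13 (adjusted p = 0.00292).

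Downstream in the pathway, Nsdhl, which takes part in removing the C4 methyl groups, read 70.5, 64.9 and 64.2 CPM against 31.7, 33.2 and 30.6 CPM (1.06 ± 0.15, adjusted p = 0.00152), and Cyp51, the lanosterol demethylase, 193, 191 and 192 CPM against 110, 112 and 109 CPM (0.80 ± 0.15, adjusted p = 0.00805). Sqle, squalene epoxidase, rose by 0.59 ± 0.14 (adjusted p = 0.0289), just above the fold threshold, and its call was lost in 8 of 14 alternatives, among them each of the 6 with 1 library left out. Acat2, the thiolase at the entry, had 142, 160 and 181 CPM against 107, 99.9 and 110 CPM without overlap, but its difference of 0.61 ± 0.20 missed the threshold (adjusted p = 0.0955). A close relative, Acat3, matches 65.6% of its transcript at 95% identity or more, so that reads of the pair may be shared.

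Of the pathway's regulators, 2 passed the test. Srebf2, the factor that mainly serves sterol genes, was at 513, 486 and 383 CPM in S-Rcm 12 h and at 306, 308 and 240 CPM in R-Scm 12 h (0.69 ± 0.14, adjusted p = 0.0124), and Insig1, the retention protein and itself an SREBP target, was at 113, 116 and 104 CPM against 46.1, 50.1 and 43.2 CPM (1.26 ± 0.19, adjusted p = 0.00292). The call of Srebf2 was lost without S-Rcm 12 h replicate 1 or R-Scm 12 h replicate 3. The other 8 genes of the list of SREBP factors and processing proteins were not DEGs. Among them was Srebf1, the form tied to fatty acid synthesis, at 97.9, 90.8 and 79.1 against 80.9, 74.3 and 69.8 CPM, where the groups overlapped (0.25 ± 0.10, adjusted p = 0.182).

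Of 24 tested genes of fatty acid synthesis, desaturation and elongation, 2 rose and 0 fell, with a median of 0.19: Slc25a1, the mitochondrial citrate exporter (0.83 ± 0.19, adjusted p = 0.0233), and Fads2, the delta-6 desaturase (0.68 ± 0.17, adjusted p = 0.028). The call of Fads2 was lost when any 1 of the 6 libraries was left out and that of Slc25a1 in 4 of these 6 fits. Scd1, the stearoyl-CoA desaturase that makes monounsaturated fatty acids, read 310, 316 and 285 CPM in S-Rcm 12 h and 200, 222 and 221 CPM in R-Scm 12 h. Its libraries did not overlap, but its difference of 0.50 ± 0.19 was not called (adjusted p = 0.139). Fasn, fatty acid synthase, differed by 0.35 ± 0.11 (adjusted p = 0.0988).

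Sterol genes in the exchanged cells lay below their level in the steady culture of the same medium, while the difference between the media was of similar size. Rcm against Scm gave the 21 genes a median of 0.76, and the difference between that contrast and the 12 h exchange was called for 0 of the 21 (3.07% of all genes tested, 0.982% upward and 2.09% downward). Even so, Fdps averaged 388 ± 3.76 CPM in steady Rcm and 200 ± 8.91 CPM in S-Rcm 12 h, and 188 ± 9.07 CPM in steady Scm against 103 ± 2.42 CPM in R-Scm 12 h (SD, n = 3). Cells just moved into Rcm had about the level of cells kept in Scm, and cells just moved into Scm had the lowest level of the 4 groups. The same order held for Nsdhl, at 118 to 123 CPM in Rcm and 58.4 to 64.5 CPM in Scm. These shifts between an exchanged and a steady group are given as levels only.

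The promoter of Hmgcs1 (chr13:119690379-119708260, plus strand) is shown because it held the sterol regulatory element, searched as TCAC, any base and CCAC on both strands. RefSeq promoters on GRCm38.p6 were matched for 31 of the 41 genes of the cholesterol list and the SREBP lists together, and 2 of these 31, Hmgcs1 and Aldoc, held the motif, while 1.44% of the 27025 genes with a promoter did. A match describes letters in a short window and does not show binding. The capitals mark the motif in the 250 bases before the start site, at chr13:119690101-119690350.
Hmgcs1: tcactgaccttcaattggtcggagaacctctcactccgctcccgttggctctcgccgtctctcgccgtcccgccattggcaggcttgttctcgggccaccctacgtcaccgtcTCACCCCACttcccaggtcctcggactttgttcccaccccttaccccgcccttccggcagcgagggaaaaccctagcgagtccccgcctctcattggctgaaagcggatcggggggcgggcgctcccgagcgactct

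Interferon-stimulated genes held more of the lower genes than any other list. Of 41 genes of the list, 33 fell in S-Rcm 12 h and 0 rose, 38 did not overlap, all 41 values were below 0, and the median log2 fold change was -1.86. With a library left out, 23 to 33 were called. The largest difference of the list was that of Ifi44, a gene induced by interferon, at 3.72, 4.26 and 3.92 CPM in S-Rcm 12 h against 24.8, 31.2 and 40.3 CPM in R-Scm 12 h (-3.01 ± 0.43, adjusted p = 0.00224).

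In the signalling chain, genes differed in either direction or were not called. Irf9, a DNA-binding part of the interferon-activated complex, read 35.5, 34.7 and 33.5 CPM in S-Rcm 12 h and 85.3, 75.5 and 97.2 CPM in R-Scm 12 h (-1.31 ± 0.27, adjusted p = 0.0135). Irf7, which amplifies interferon production, fell by 1.44 ± 0.30 on the log2 scale (adjusted p = 0.0138). Both calls were lost without S-Rcm 12 h replicate 1 or replicate 3, and that of Irf9 also without R-Scm 12 h replicate 3, as was that of Tyk2. The receptor genes differed by 0.26 (Ifnar1, adjusted p = 0.35) and -0.11 (Ifnar2, adjusted p = 0.533) and were not called. Of the receptor's kinases, Tyk2 went the other way and was higher in S-Rcm 12 h, at 46.4 to 50.9 against 26.2 to 34.5 CPM (0.65 ± 0.13, adjusted p = 0.0108). Jak2, a kinase of other cytokine receptors, was lower, at 47.5 to 63.7 against 81.5 to 108 CPM (-0.79 ± 0.13, adjusted p = 0.00372). Irf7, Irf9, Tyk2, Jak2 and the receptor genes, like Ifit1, Isg15, Sqle and Cyp51, were named after their values were seen.

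Among the effectors, Ifit1, which binds foreign RNA, was at 18.7, 23.6 and 15.1 CPM in S-Rcm 12 h and at 95.5, 132 and 141 CPM in R-Scm 12 h (-2.68 ± 0.40, adjusted p = 0.00317). Isg15, a ubiquitin-like modifier, was at 16.6, 9.69 and 16.7 CPM against 54.5, 43.5 and 41.8 CPM (-1.70 ± 0.29, adjusted p = 0.00526), with the reservation that a sequence annotated as AC151275.1 matches 63.8% of its transcript. Every library of R-Scm 12 h lay above every library of S-Rcm 12 h for both genes. The guanylate-binding protein Gbp2 stood at 10.8, 11.3 and 9.48 CPM against 43.4, 49.7 and 61.3 CPM (-2.29 ± 0.27, adjusted p = 0.00057), and the nucleic acid sensor Zbp1 at 0.329 to 0.819 against 2.95 to 4.78 CPM (-2.87 ± 0.35, adjusted p = 0.00057). Usp18, which dampens the receptor and removes ISG15 from proteins, fell by 2.84 ± 0.46 on the log2 scale (adjusted p = 0.00427), and Mx2, an antiviral GTPase, by 2.69 ± 0.48 (adjusted p = 0.00659). Members of the list that were not called included H2-K1 (-0.31, adjusted p = 0.276) and H2-D1 (-0.18, adjusted p = 0.413), the heavy chains of MHC class I.

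The direction was the reverse of that in steady culture. In Rcm against Scm, 37 of the 41 genes were higher and 0 lower (1.67% and 0.631% of all genes) and the median was 2.55. The difference between the 12 h exchange and the steady contrast was called lower for 38 of the 41 (2.09% of all genes), with a median of -4.4. The levels of Ifit1 were 4.71 to 6.32 CPM in Scm and 43.1 to 82.0 CPM in Rcm, so that 12 h after the exchange the cells raised in Rcm and now in Scm held the highest level and the cells raised in Scm and now in Rcm lay between the steady groups. Irf9 had a similar order, at 23.8 to 25.4 CPM in Scm, 33.5 to 35.5 in S-Rcm 12 h, 51.9 to 81.4 in Rcm and 75.5 to 97.2 in R-Scm 12 h, where the ranges of the last pair overlapped.

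The promoters of Isg15 and Ifit1 are shown because these called genes held the interferon-stimulated response element, searched as GAAA, 2 bases of any kind and GAAA on both strands. This motif was chosen after the data were seen. Of the 41 genes 32 were matched to a RefSeq promoter, and 17 of these (53.1%) held the motif, against 3.99% of the 27025 genes with a promoter and 6.25% of 16 matched genes of cholesterol synthesis. Capitals mark the matches, which overlap each other where they run on, in the 250 bases before the RefSeq start sites on GRCm38.p6, at chr4:156200819-156201068 (minus strand, Isg15) and chr19:34640639-34640888 (plus strand, Ifit1). The 3 matches of Isg15 began 78, 72 and 66 bases before its start.
Isg15: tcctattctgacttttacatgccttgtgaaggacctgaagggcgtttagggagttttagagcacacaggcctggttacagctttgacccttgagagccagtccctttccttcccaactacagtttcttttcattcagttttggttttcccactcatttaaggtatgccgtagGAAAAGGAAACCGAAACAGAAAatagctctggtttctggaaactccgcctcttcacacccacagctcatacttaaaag
Ifit1: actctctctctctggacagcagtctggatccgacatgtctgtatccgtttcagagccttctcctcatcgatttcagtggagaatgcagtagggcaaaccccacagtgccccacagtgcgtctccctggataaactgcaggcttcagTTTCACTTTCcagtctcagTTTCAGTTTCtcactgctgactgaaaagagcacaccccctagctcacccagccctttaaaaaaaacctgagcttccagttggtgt

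Over the whole set of 405 DEGs, 113 (27.9%) were also DEGs between Rcm and Scm, where 354 genes (2.3%) were called, and these 113 made up 31.9% of that list. In 27 of them the direction followed the present serum and in 86 it was opposite. The 22 that were higher with present Rcm in both comparisons included 7 of cholesterol synthesis, and the 5 that were lower in both were Npnt, Dynap, Id4, Enpp2 and S100a7a. Of the 86, 84 were lower in S-Rcm 12 h and higher in Rcm, 33 of them from the interferon list, while Hecw2 and Notumos ran the other way. The 12 h call of Hecw2 (0.59, adjusted p = 0.0357) was lost in 12 of 14 alternatives, among them every fit with 1 library left out. That of Notumos was lost in 4 of 14. The remaining 292 DEGs (72.1%) were not called between Rcm and Scm, 135 of them higher and 157 lower in S-Rcm 12 h. A direct test found 472 genes (3.07%) whose 12 h exchange difference was unlike the steady difference, 151 above it and 321 below it. Steady Rcm replicate 3 weighed on this count, which was 1598 without it, 793 above and 805 below.

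**Figure D2:**
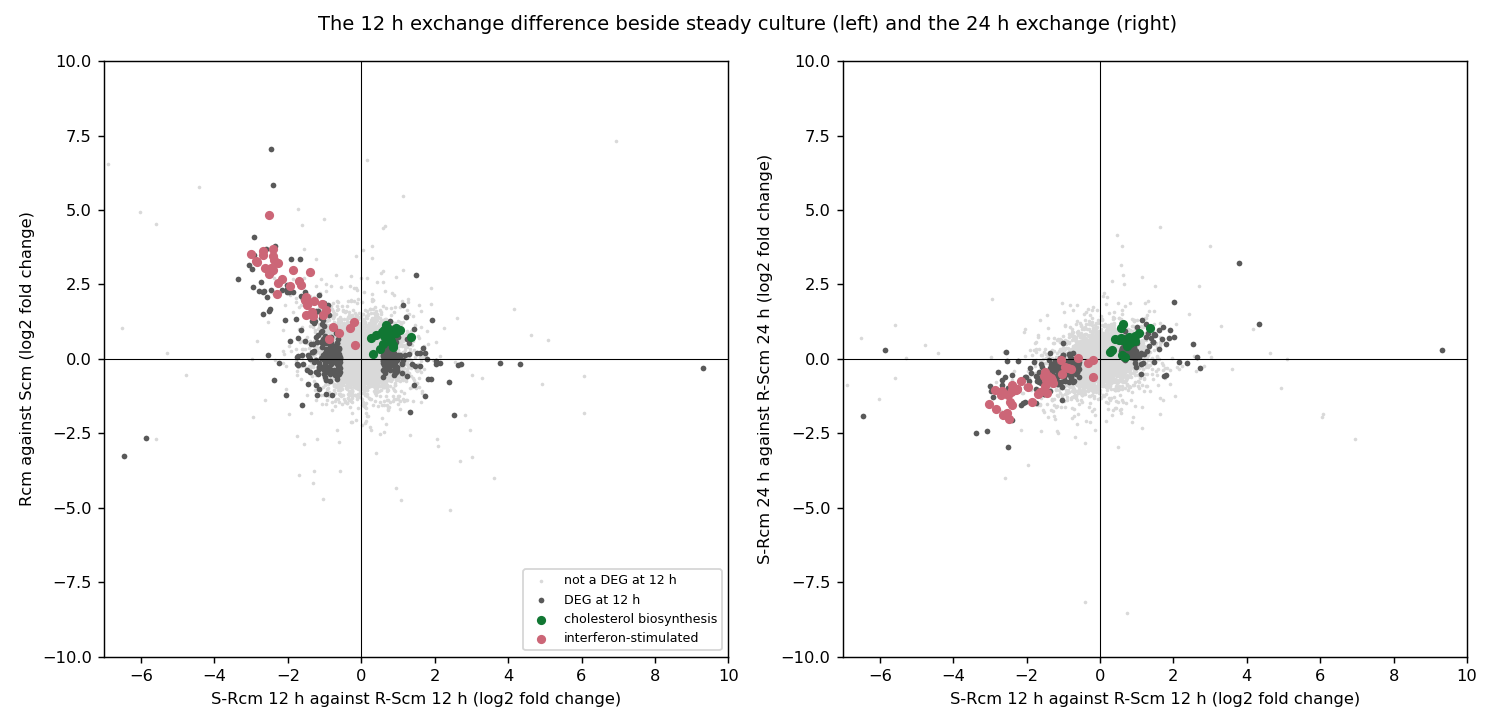
Log2 fold change of the 15381 tested genes in S-Rcm 12 h against R-Scm 12 h (horizontal, linear) beside Rcm against Scm (left, vertical) and S-Rcm 24 h against R-Scm 24 h (right, vertical), with DEGs at 12 h in dark grey. The 21 cholesterol genes (green) are above 0 on all 3 scales, and the 41 interferon genes (rose) are below 0 at 12 h and above 0 in steady culture.

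At 24 h the same pair of exchanges gave 10 DEGs (0.065%, with 0.0455% higher and 0.0195% lower) from libraries that the 12 h comparison does not share. Of these, 8 (80%) were among the 405, all in the same direction: Angptl4, Aqp1, Pcx, Nsdhl, Gsta4, Ucp2 and Gm3571 higher and Dynap lower. These 8 were 1.98% of the 12 h list, and 380 of the 405 (93.8%) had the same sign at 24 h. In Rcm against Scm, 171 of the 405 had the same sign as at 12 h. The share of equal signs over all genes was not computed. Over all genes tested, the log2 fold changes at 12 h correlated with those at 24 h at r = 0.32 and with those of steady culture at r = -0.23. The direct test of the difference between the 12 h and the 24 h contrasts called 0 genes in edgeR, with 917 at an unadjusted p under 0.05, and 9 in DESeq2. The cholesterol list had a median of 0.62 at 24 h and the interferon list a median of -1.01, with 0 of its 41 genes called. R-Scm 24 h replicate 1 stood above the other 2 libraries of its group for the sterol and interferon genes in the plot of levels (Ifit1 at 61.6 CPM against 22.5 and 18.3), and without it the 24 h contrast gave 125 DEGs and the test between the times 29 genes.

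Of 21 tested PPAR targets and fatty acid oxidation genes, 6 rose and 0 fell (Angptl4, Cpt1a, Ucp2, Acot2, Acot1 and Acadvl), with a median of 0.26, and 6 were called without R-Scm 12 h replicate 1, 1 without R-Scm 12 h replicate 3 and 3 or 4 without each of the others. Angptl4, a secreted inhibitor of lipoprotein lipase, was at 35.7, 28.1 and 35.6 CPM in S-Rcm 12 h and at 15.8, 13.3 and 15.7 CPM in R-Scm 12 h (1.15 ± 0.18, adjusted p = 0.00292). Cpt1a, which admits long-chain fatty acids to mitochondria, was at 123, 132 and 120 CPM against 72.4, 80.7 and 69.0 CPM (0.76 ± 0.14, adjusted p = 0.00839). Both were also higher in Rcm than in Scm, by 1.81 (adjusted p = 7e-05) and 1.08 (adjusted p = 0.000462), while Acot2 (-0.09, adjusted p = 0.798), Acadvl (-0.12, adjusted p = 0.75) and Acot1 (0.15, adjusted p = 0.722) were not called there. The 12 h call of Cpt1a was lost without R-Scm 12 h replicate 3. Acot1 and Acot2 are near copies, with 58.0% of the Acot2 transcript matched, so that their reads may be split.

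Glutathione transferase genes were not called in steady culture. Gsta4, which conjugates 4-hydroxynonenal, a product of lipid peroxidation, had the smallest p of all genes, at 119, 109 and 125 CPM in S-Rcm 12 h and 41.6, 42.6 and 39.8 CPM in R-Scm 12 h (1.51 ± 0.10, adjusted p = 1.17e-06). The steady groups sat with R-Scm 12 h, at 32.8 to 38.5 CPM in Scm and 38.7 to 43.8 CPM in Rcm, and the 12 h difference exceeded the steady one by 1.30 (adjusted p = 5.79e-05). Gsta1 rose by 1.72 ± 0.29 (adjusted p = 0.00447) and Gsta2 by 2.02 ± 0.40 (adjusted p = 0.0108), but their transcripts match each other over 100% of their length, which makes the split of reads between them uncertain. Aldh3a1, an aldehyde dehydrogenase, was at 2.24 to 3.34 CPM against 0.103 to 0.274 CPM (adjusted p = 0.0169), a call lost in 3 of 13 alternatives. The NRF2 list, to which Gsta4 belongs, had 2 of 20 genes higher, with Pgd the other, and a median of 0.27. Pgd passed the fold threshold only before rounding (0.58, adjusted p = 0.0034), and its difference ranged from 0.52 to 0.65 over 14 alternatives. Nqo1, its usual marker, was at 344, 330 and 337 CPM against 204, 219 and 261 CPM and just missed the fold threshold (0.56 ± 0.11, adjusted p = 0.0102), and Hmox1 differed by -0.03 (adjusted p = 0.949).

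Retinoid genes differed in both directions. Dhrs3, which returns retinal to retinol and is induced by retinoic acid, was at 32.1, 29.1 and 27.2 CPM in S-Rcm 12 h and 7.11 to 10.4 CPM in R-Scm 12 h (1.68 ± 0.19, adjusted p = 0.000459). Its steady groups, at 13.9 to 17.0 CPM in Scm and 19.4 to 20.8 CPM in Rcm, lay between. Crabp2, which carries retinoic acid to the nucleus, rose by 1.39 ± 0.24 (adjusted p = 0.00451) and Stra6, the retinol-binding protein receptor, by 1.48 ± 0.37 (adjusted p = 0.034), a call lost in 6 of 13 alternatives, 5 of them with 1 library left out. Aldh1a1, which makes retinoic acid, fell instead, at 4.11, 2.35 and 2.63 CPM against 7.39, 7.82 and 11 CPM (-1.52 ± 0.24, adjusted p = 0.00317), and was higher in Rcm than in Scm. In all, 3 of 11 tested genes of the list rose and 1 fell, with a median of 0.36.

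**Figure D3:**
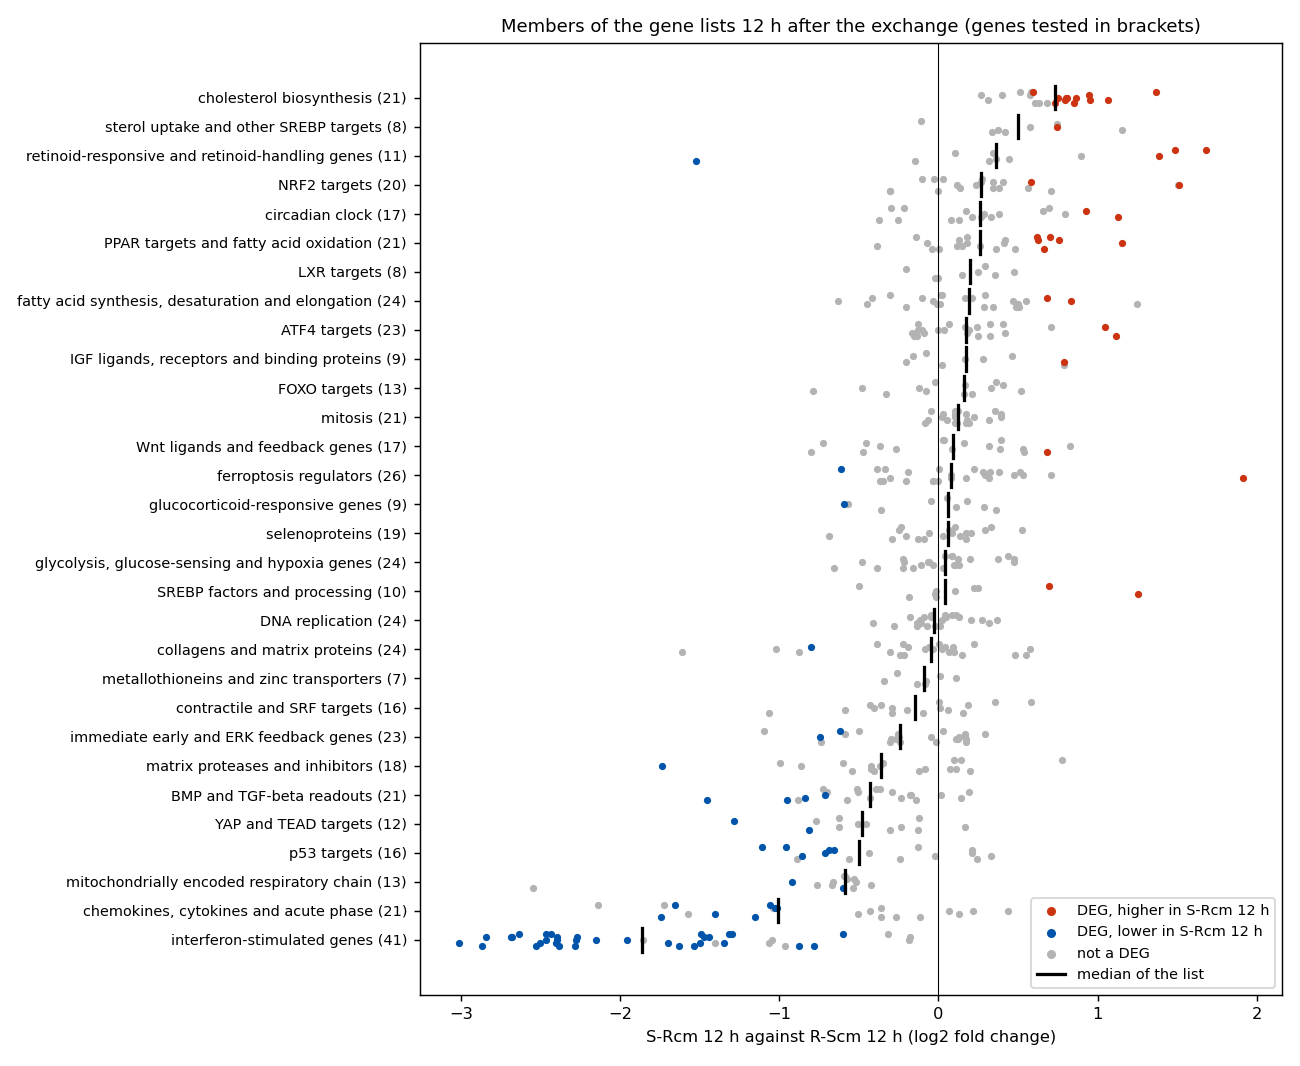
Log2 fold change in S-Rcm 12 h against R-Scm 12 h (horizontal, linear) for the tested members of 30 gene lists (rows), with each point a gene, red and blue for DEGs and a black bar for the list's median. The cholesterol list has the highest median (0.73) and the interferon list the lowest (-1.86).

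Of 21 tested chemokine, cytokine and acute phase genes, 7 fell and 0 rose, beside 1.6% and 1.03% of all genes tested, with a median of -1.01. Of these genes 3 were called without R-Scm 12 h replicate 3 or S-Rcm 12 h replicate 1 and 4 without S-Rcm 12 h replicate 2. With at least 10 counts required in every library, the median was -0.44. Cxcl10, itself induced by interferon, was at 18.5, 23.3 and 17.7 CPM against 55.7, 62.5 and 68.9 CPM (-1.65 ± 0.17, adjusted p = 0.000184), and Ccl7, a chemokine for monocytes, at 59.5, 62.8 and 55 CPM against 97.1, 109 and 163 CPM (-1.06 ± 0.16, adjusted p = 0.00292). Cxcl12, the ligand of CXCR4, was at 68.6, 69.4 and 64.7 CPM against 112, 110 and 228 CPM, the last in R-Scm 12 h replicate 3 (-1.15 ± 0.20, adjusted p = 0.00559). The steady groups held 63.5 to 75.7 CPM of Cxcl12, as S-Rcm 12 h did. Without that library the difference was -0.72 and was still called, but with the spread of the 6 libraries alone the call was lost.

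F3, tissue factor, which starts coagulation and is a YAP target, was at 87.7, 95.2 and 81.5 CPM in S-Rcm 12 h and 162, 147 and 336 CPM in R-Scm 12 h, the highest again in replicate 3 (-1.29 ± 0.22, adjusted p = 0.00479). The other 2 libraries of R-Scm 12 h were also above all of S-Rcm 12 h and above the steady groups. The call of F3 was lost with edgeR on the 2 compared groups alone. Of the BMP and TGF-β readouts 4 of 21 fell (median -0.43), and of the YAP and TEAD targets 2 of 12, F3 and Ccn1 (median -0.48), with 0 rising in either list. The first count was 1 without S-Rcm 12 h replicate 1 and 2 without S-Rcm 12 h replicate 3. Ccn1 was at 900, 874 and 1360 CPM in R-Scm 12 h, and its call was lost in 4 of 14 alternatives. R-Scm 12 h replicate 3 was the library left out in 1 of these, and without it the YAP and TEAD median was -0.29. In Rcm against Scm, 7 of the 21 BMP and TGF-β readouts were lower, with a median of -0.40. Id4, an inhibitor of helix-loop-helix factors, was lower in both comparisons, at 15.4, 15 and 13.1 CPM against 28.4, 27.6 and 28.0 CPM (-0.95 ± 0.14, adjusted p = 0.00225) and at -1.16 in Rcm against Scm (adjusted p = 0.000213). The cytoskeletal actin gene Actb, named after its values were seen, was at 1720, 1620 and 2210 CPM against 3060, 3050 and 3240 CPM (-0.75 ± 0.20, adjusted p = 0.0484), a call that was lost when any 1 of the 6 libraries was left out.

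Targets of p53 were lower in S-Rcm 12 h in 6 of 16 tested genes and higher in 0, with a median of -0.50, and 1 was called without R-Scm 12 h replicate 3 and 2 without S-Rcm 12 h replicate 1 or replicate 3. Ccng1, cyclin G1, was at 120, 141 and 115 CPM against 220, 240 and 272 CPM (-0.96 ± 0.14, adjusted p = 0.00229), while the steady groups held 118 to 151 CPM. Mdm2, the ubiquitin ligase that removes p53, was at 103, 117 and 104 CPM against 146, 156 and 209 CPM (-0.66 ± 0.12, adjusted p = 0.00526), and Trp53inp1, a stress-induced partner of p53, fell by 1.11 ± 0.25 on the log2 scale (adjusted p = 0.0191). Leaving out R-Scm 12 h replicate 3 ended both calls, and that of Trp53inp1 was lost in 4 of 14 alternatives. Cdkn1a, the cell cycle inhibitor p21, ranged from 40.1 to 138 CPM within S-Rcm 12 h and from 143 to 231 CPM in R-Scm 12 h and was not called (-0.89 ± 0.31, adjusted p = 0.117).

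**Figure D4:**
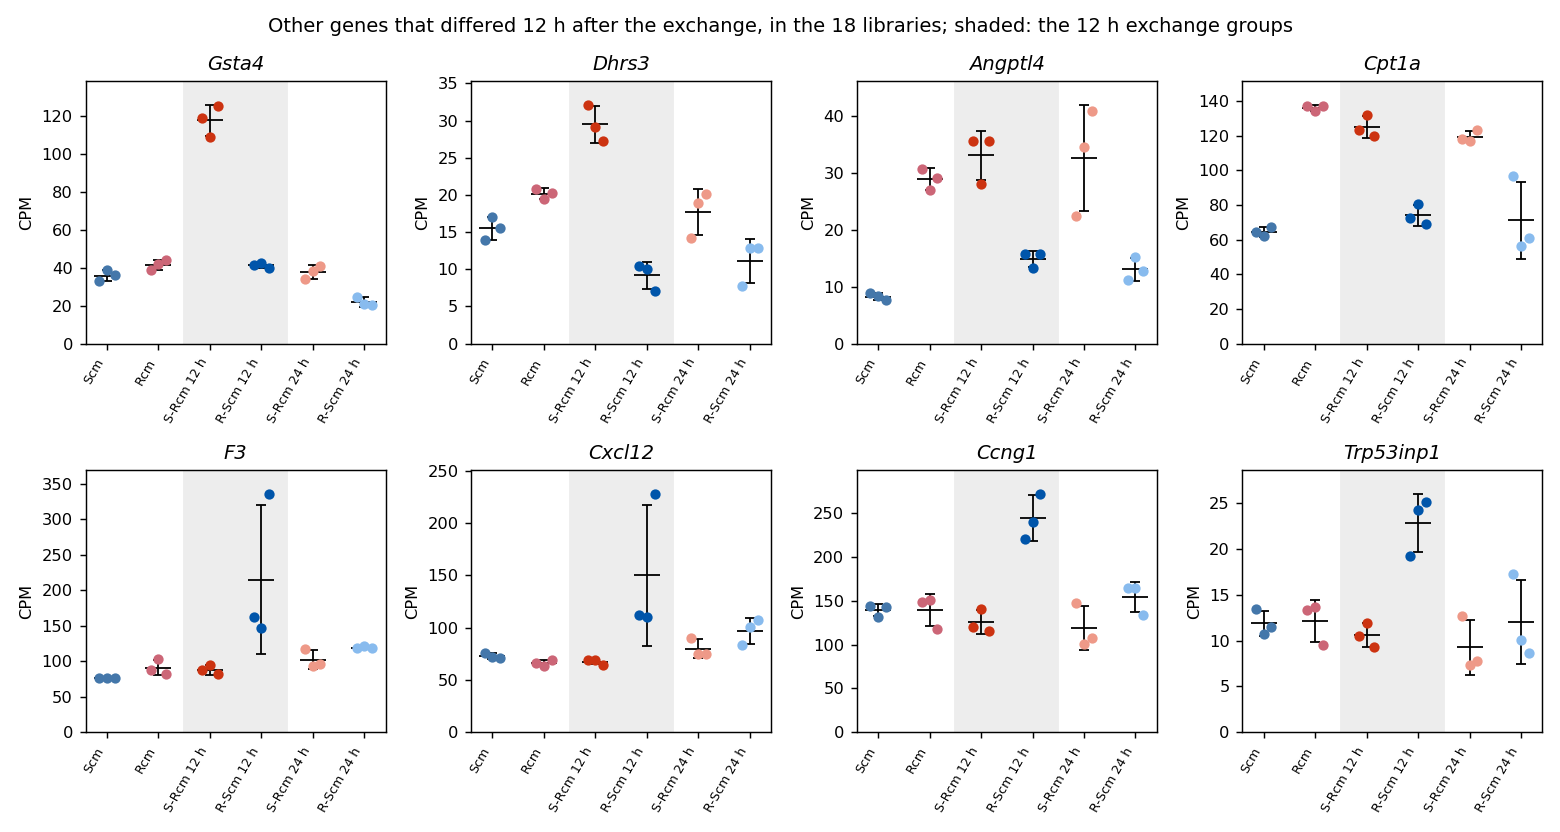
Level (CPM, linear axis from 0) of 8 further genes in each of the 18 libraries, where points are libraries and the bar with whiskers is the mean ± SD of 3. Gsta4 stands at 109 to 125 CPM in S-Rcm 12 h and 39.8 to 42.6 CPM in R-Scm 12 h, while F3, Cxcl12, Ccng1 and Trp53inp1 are higher in R-Scm 12 h than in S-Rcm 12 h.

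Beside 2.63% called over all genes, in DNA replication 0 of 24 genes were called (median -0.03), in mitosis 0 of 21 (median 0.12), in glycolysis and hypoxia 0 of 24 (median 0.04), among selenoproteins 0 of 19 (median 0.06) and among contractile and SRF targets 0 of 16 (median -0.15). At an unadjusted p under 0.05, 3293 of all 15381 genes passed. Among mitochondrially encoded genes 2 of 13 were called lower, mt-Nd6 (-0.92 ± 0.20, adjusted p = 0.0174) and mt-Cytb (-0.60 ± 0.15, adjusted p = 0.0345), with the calls lost in 3 and 5 of 14 alternatives, and 12 of 13 lay lower without overlap, beside the lower mitochondrial share of counts given above. The part of that share in the other results was not tested.

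Of 26 tested ferroptosis regulators, 1 was higher and 1 lower, beside 1.03% and 1.6% of all genes tested, with a median of 0.08. The higher was Slc40a1, ferroportin, the iron exporter, at 2.14, 2.63 and 2.99 CPM in S-Rcm 12 h and 0.875, 0.720 and 0.429 CPM in R-Scm 12 h (1.91 ± 0.41, adjusted p = 0.0155). The lower was Tfrc, the transferrin receptor that imports iron, at 241, 261 and 236 CPM against 352, 347 and 428 CPM (-0.61 ± 0.13, adjusted p = 0.0179). Both calls were lost without S-Rcm 12 h replicate 3 or R-Scm 12 h replicate 3, and that of Tfrc also without S-Rcm 12 h replicate 1. Gpx4, the glutathione peroxidase that reduces lipid hydroperoxides, was at 125, 109 and 127 CPM against 113, 100 and 107 CPM, where the groups overlapped (0.17 ± 0.08, adjusted p = 0.223), and its pseudogene Gpx4-ps2 matches 73.7% of its transcript. Slc7a11, the cystine importer, overlapped as well (0.71 ± 0.40, adjusted p = 0.318), and so did Acsl4, which loads polyunsaturated fatty acids (-0.20 ± 0.13, adjusted p = 0.371).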

How the data were processed

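RNA was extracted with the RNeasy mini kit from WT MEFs and sequenced as paired-end mRNA libraries (ABclonal kit, NovaSeq). The authors aligned the reads to GRCm38 with HISAT2 and deposited raw read counts for 55487 genes in 18 libraries, without normalization. The counting tool, the use of strand and the treatment of reads with several alignments are not given in the sources used here, so that overlapping genes and near copies may share reads. Total counts per library were 14534906 to 20313715.

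From the counts, filterByExpr kept 15381 genes. TMM factors (0.963 to 1.03) and edgeR's robust quasi-likelihood fit over all 18 libraries (12 residual degrees of freedom) gave the contrasts S-Rcm 12 h against R-Scm 12 h, Rcm against Scm, S-Rcm 24 h against R-Scm 24 h and the differences of the first from the other two. DEGs differed by over 0.58 (log2) in either direction at an adjusted p below 0.05. CPM use TMM library sizes. Libraries within a group differed by more than sampling noise (chi-square per degree of freedom 13.4 to 31.3). Where a group held at most 3 counts per library, folds are bounds. Counts carry no molecular identifiers, so that such limits cover counting error only. Lists are described by counts and medians, without a test.

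The members and lists were chosen with earlier results of these data known. Genes were named by a rule. It took those the study names for RNA-seq, SREBP1 targets or ferroptosis. The rule added the 10 largest rises and falls with at least 1 CPM and no overlap. From each list came the 4 DEGs with the smallest p (or 1 member where none was called). The 5 largest each way in the differences of contrasts and among DEGs that reversed completed it. Other genes, among them Hmox1, Cdkn1a, Acot1, Acadvl, H2-K1 and H2-D1, were named outside this rule. Gene locations and overlaps come from GENCODE M21, copies from blastn 2.17.0 at 95% identity, and promoters from RefSeq on GRCm38.p6. Alternatives were RLE and upper-quartile scaling, other filters and thresholds, DESeq2, the compared groups alone, a replicate block and each library left out. The fit was tested on simulated counts. Versions were R 4.3.3, edgeR 4.0.16, DESeq2 1.42.0, Python 3.11.15 and matplotlib 3.10.9. Some genes of the lists are counted in them but not reported here by name.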

Additional observations from a re-analysis of the deposited data

Results flagged for a closer look

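The difference between S-Rcm 12 h and R-Scm 12 h was unlike that between Rcm and Scm for 472 genes, tested as a difference of the contrasts in edgeR, among them the following. Oas2, an oligoadenylate synthetase of the antiviral response, differed by -7.34 on the log2 scale (adjusted p = 0.000404), being at 1.17 to 2.13 CPM in S-Rcm 12 h, 7.11 to 10.6 in R-Scm 12 h, 0.0687 to 0.428 in Scm and 5.64 to 8.17 in Rcm. Its own 12 h difference of -2.53 lost its call in 6 of 13 alternatives. Ifi44 differed by -6.52 (adjusted p = 1.63e-05).

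In the other direction, Insm1, a zinc finger factor of neuroendocrine cells, differed by 4.41 (adjusted p = 0.00109). It was at 4.31 to 5.62 CPM in S-Rcm 12 h, 0.123 to 1.26 in R-Scm 12 h, 1.65 to 1.94 in Scm and 0.374 to 0.559 in Rcm. Notumos, an antisense transcript of Notum, differed by 3.1 (adjusted p = 0.000532), at 5.15 to 6.08 CPM in S-Rcm 12 h and 1.66 to 3.06 in R-Scm 12 h, and without strand its reads cannot be told apart from those of Notum. Its own 12 h difference lost its call in 4 of 14 alternatives. Gsta1 differed by 2.95 (adjusted p = 0.00105), and Mlph, melanophilin, by 2.83 (adjusted p = 0.0385), with 0 to 0.309 CPM in R-Scm 12 h. The 12 h call of Mlph was lost in 4 of 13 alternatives, DESeq2 on 18 libraries among them. That of Insm1 was lost in 1 of 13, edgeR on the compared groups alone.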

How the results depend on the processing

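Over 1737 alternative values of 126 named genes, 1447 kept direction and side of the threshold, 271 lost the call, 12 gained it and 7 changed sign, all in genes that were not called: Hmox1 (0.01 with the replicate block and -0.24 to 0.37 with 1 library left out), Krt8 (-1.1 to 0.7 with 1 library left out) and Pparg (-0.01 to 0.4 with 1 library left out). The tallies judged values rounded to 2 decimals, so that Pgd, at 0.58, counted in them as not called in the main fit. Pgd supplied 3 of the 12 gains. DESeq2 on 18 libraries gave 860 genes for the difference from steady culture, 9 for the difference from 24 h and 54 DEGs at 24 h. On the compared groups alone, edgeR gave 248 DEGs at 12 h, and DESeq2 560 DEGs in steady culture and 42 at 24 h. With the adjusted p alone there were 643 DEGs at 12 h and 42 shared in direction with steady culture. With an adjusted p under 0.01 the counts were 117 DEGs at 12 h, 170 in steady culture and 0 at 24 h, 186 for the difference from steady culture, and 8 shared in the same and 39 in the opposite direction.

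With 1 library left out, there were 133 to 473 DEGs at 12 h, 178 to 574 in steady culture and 0 to 125 at 24 h. The differences from steady culture and from 24 h then ranged from 258 to 1598 and from 0 to 29, the shared DEGs from 12 to 24 in the same and from 44 to 96 in the opposite direction, and the called genes from 6 to 8 in the cholesterol list and from 23 to 33 in the interferon list. The list counts were added after seeing the data. The lone pair left in a group is then judged by the spread of all groups. Replicate numbers, taken from the sample titles, did not pair the samples (correlations of 0.046, 0.004 and -0.019, and no library matched its own number best). The count columns of some groups, R-Scm 12 h among them, carry other numbers, and pairing by these was not examined. With the replicate block on title numbers there were 367 DEGs at 12 h. The cause of these shifts was not tested. Genes at a few counts per library are limited by depth.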

Other observations

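Some genes with large differences belonged to none of the lists. Edn1, endothelin 1, named after its values were seen, was at 20.2, 20.8 and 21.8 CPM against 41.3, 44.2 and 72.5 CPM (-1.33 ± 0.17, adjusted p = 0.000898), with the steady groups at 12.9 to 16.9 CPM.

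Nlrp2, a gene of the NLR family, had 0 to 2 counts per library in S-Rcm 12 h and 18 to 87 in R-Scm 12 h, at least 15.5-fold lower in S-Rcm 12 h against a floor of 3 counts per library, with the highest count in R-Scm 12 h replicate 3. Without that library the bound was 7.47-fold, and DESeq2 on 18 libraries did not call the gene. Of the clock genes, Ciart, a repressor of the circadian clock, rose by 0.93 ± 0.17 (adjusted p = 0.00773), and Tef, a PAR bZIP factor, by 1.12 ± 0.27 (adjusted p = 0.0298), with Tef at 14.2 CPM in R-Scm 12 h replicate 3 and at 33.6 to 37.4 CPM in the other 2 libraries of that group. The call of Tef was lost in 6 of 14 alternatives and that of Ciart with the 2 compared groups alone. These were 2 of 17 tested clock genes, and 0 fell. Apoh, which encodes apolipoprotein H, was too low to be tested, at 1 to 7 counts in each of the 6 libraries.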
